A study of Mus musculus with 55 samples.

Results

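The genes described here are the listed genes of mouse liver whose names mark CD antigens, products of the major histocompatibility complex (MHC), Fc receptors, C-type lectins of the Clec4 and Clec7 groups, or other surface and granule proteins used to recognise immune and non-parenchymal cells. They were taken by gene name (the Cd numbers, H2-, Fcgr, Fcer, Clec4, Clec7, Adgre, Ms4a, Lyz, Lilr and Siglec names, with Marco, Timd4, Ptprc, Ly86, Ctss and Tyrobp) from the gene tables of the 2 RNA-seq comparisons, which gave 24 of the 4113 genes listed in either table. Setd8-LKO + TCPOBOP against untreated wild type listed 3900 genes, all 24 among them, and WT + TCPOBOP against untreated wild type listed 719, with Marco alone of the 24. Both tables hold only genes that the authors selected for a difference in these same libraries, so the presence of a gene and the direction of its change are not independent evidence, and counts over the listed genes are not counts over the genome.

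RNA was taken from whole liver of male mice aged 45 to 50 days, in 3 groups: wild type left untreated (n = 5), wild type 24 h after an intraperitoneal injection of 3 mg/kg TCPOBOP (n = 5), and Setd8-LKO mice after the same injection (n = 4). TCPOBOP is an agonist of the nuclear receptor CAR and makes hepatocytes proliferate, and Setd8-LKO mice carry floxed Setd8 alleles and a Cre transgene under the albumin promoter, which acts in hepatocytes, so immune cells are not its target. Genotype and treatment changed together between Setd8-LKO + TCPOBOP and the controls, and a Setd8-LKO group without TCPOBOP was not analysed here. The labels call the controls untreated, whereas the methods speak of a vehicle, so the injection may differ between the groups as well. Kmt5a, the gene of Setd8, had 563 to 761 normalized counts in the untreated libraries and 1313 to 1465 in those labelled Setd8-LKO, higher in all 4, and the deleted exon cannot be told from the rest of the gene in such a count. The groups are therefore named by their labels.

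MHC class II molecules are pairs of an alpha and a beta chain that display peptides on dendritic cells, macrophages and B cells to helper T cells, and their genes share a promoter layout, an X box followed by a Y box, through which the co-activator CIITA switches them on. CD antigens are surface proteins catalogued by the antibodies that bind them, and few belong to a single cell type: CD14 and Marco take up or sense bacterial products on macrophages, CD22 and CD79b belong to the B cell receptor complex or its regulators, and CD9, CD24 and CD44 are found on epithelial cells as well. The liver holds resident macrophages (Kupffer cells), sinusoidal endothelium, stellate cells, bile duct cells and passing lymphocytes beside its hepatocytes. In RNA of whole liver, more cells of a type and more RNA per cell cannot be told apart.

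The class II genes rose together in these tables, and 3 of the 4 have a RefSeq promoter in the reference used here (GRCm38.p6). The sequences are shown because the same pair of motifs stands in each promoter window. They are printed 5′ to 3′ on the strand of the gene, with the X box core (CTNGNAACT) first and the Y box core (TGATTGG) second in capitals. For H2-Aa (minus strand, chr17:34287824-34288073) and H2-Eb1 (plus strand, chr17:34305617-34305866) the 250 bases before the start are given. For H2-DMb1 (plus strand, chr17:34153094-34153123) only the stretch that opens with the X box core is given, since the annotation has transcripts that start further upstream, and it ends before the Y box core.
H2-Aa: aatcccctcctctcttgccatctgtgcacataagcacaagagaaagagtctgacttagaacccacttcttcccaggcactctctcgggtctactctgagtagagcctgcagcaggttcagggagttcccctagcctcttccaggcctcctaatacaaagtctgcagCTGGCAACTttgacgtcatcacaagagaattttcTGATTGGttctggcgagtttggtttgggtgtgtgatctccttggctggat
H2-Eb1: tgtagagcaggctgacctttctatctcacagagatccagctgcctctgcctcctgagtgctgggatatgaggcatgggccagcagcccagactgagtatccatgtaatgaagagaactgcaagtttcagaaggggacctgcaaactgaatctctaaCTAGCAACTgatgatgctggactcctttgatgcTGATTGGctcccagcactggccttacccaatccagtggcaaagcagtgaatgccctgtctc
H2-DMb1: CTAGTAACTgatgatgctaggctgattcac

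The X box core began 84 bases before the start in H2-Aa, 94 in H2-Eb1 and 97 in H2-DMb1, and the Y box core 50, 61 and 63 bases before it. The gap between the motifs was 25 bases in H2-Aa, 24 in H2-Eb1 and 25 in H2-DMb1, and all matches lay on the strand of the gene. Both strands of the 250 bases before each start were searched, and the 2 motifs do not overlap each other. The X box letters were set after these sequences had been read. Over all 32851 promoter windows, 7.23% held the Y box core, 3.47% the X box core and 0.265% held both. Of the 16 genes of the 24 that have a window, H2-Aa, H2-Eb1 and H2-DMb1 were the ones with either motif. Genes without a window in the table included H2-Ab1, Cd14, Cd24a, Cd248, Cd79b, Cd83 and H2-Q5. A match is a description of the letters, and binding of a factor was not measured at these boxes.

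In livers of Setd8-LKO + TCPOBOP, 22 of the 24 genes passed the test (edgeR quasi-likelihood test, adjusted p under 0.05 and a log2 fold change of at least 1 in size), 16 higher and 6 lower than in untreated wild type. Among all 3745 genes tested, 91.7% passed, 54.6% higher and 37.1% lower, so the share of the 24 that passed was at the background of the table, with 66.7% higher and 25.0% lower. The median log2 fold change was 1.22 over the 24 genes and 1.17 over all genes tested. The genes that rose were the class II chains, macrophage and dendritic cell genes, both listed tetraspanins and the surface antigens Cd24a, Cd34 and Cd248. The genes that fell included the B cell genes Cd22 and Cd79b, the complement regulator Cd59b, and H2-Q5 and H2-Ke6, while Cd44 and Cd200 did not pass. The groups did not overlap for 17 of the 24 genes, against 86.7% of all genes tested, and with the run (A or B in the column headers, which do not say what a run is) as a term in the fit 16 of the 24 passed, against 85.8%. Counts are raw reads scaled by the authors' factor for each library. Size factors set by DESeq2 on the listed genes moved the median of all genes tested to 0.35. They moved the count to 10 of 24, with 4 higher and 6 lower, and the share of all genes tested that passed with them was not computed.

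**Figure D1:**
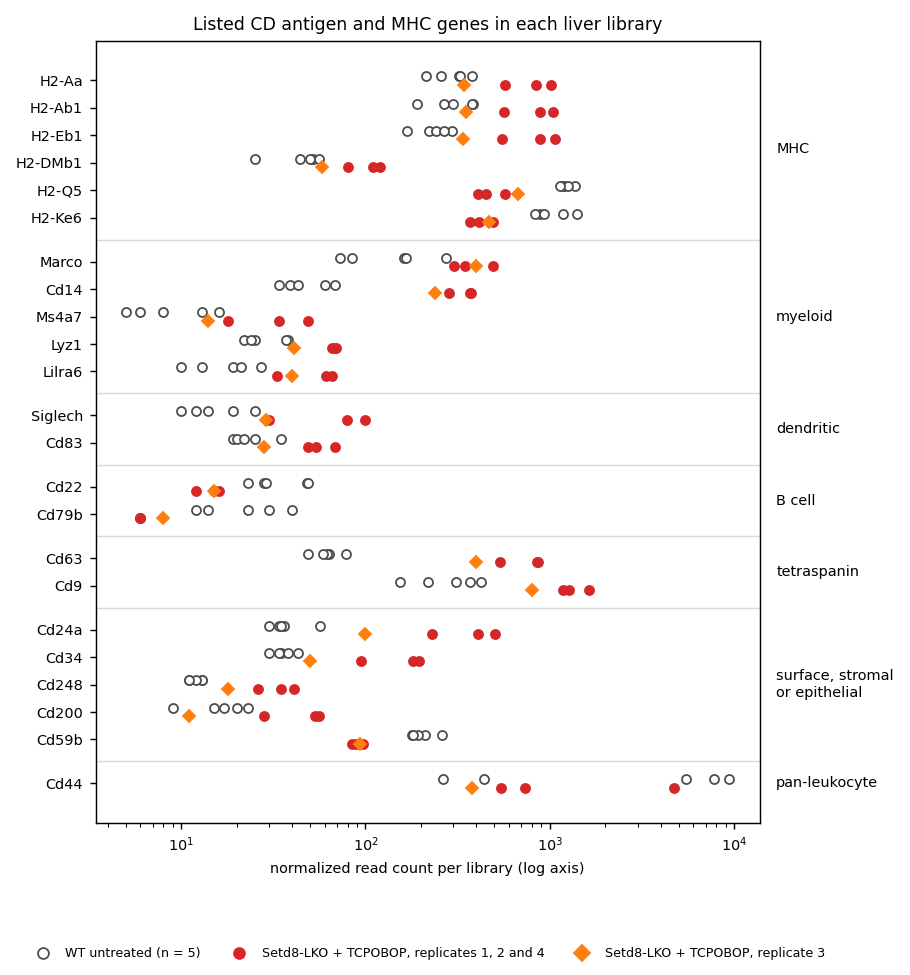
Normalized read counts on a log axis of the genes named in the text, grouped by role, with one point per library: open circles are untreated wild type, red circles Setd8-LKO + TCPOBOP replicates 1, 2 and 4, and orange diamonds replicate 3. The diamond is the lowest of the 4 Setd8-LKO values in 14 of the 16 genes that rose.

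The 4 class II chains that are listed lie near each other on chromosome 17 (mm10) and all rose. H2-Aa (chr17:34282744-34287823), the alpha chain of the I-A molecule, had 257, 323, 378, 213 and 324 normalized counts in the untreated libraries 1 to 5 and 1019, 842, 342 and 568 in the Setd8-LKO libraries 1 to 4. H2-Ab1 (chr17:34257689-34269419), the beta chain of I-A, had 268, 298, 384, 190 and 377 counts against 1043, 886, 352 and 567. For both genes Setd8-LKO replicate 3 lay inside the untreated range and the other 3 above it. H2-Eb1 (chr17:34305867-34316674), the beta chain of the I-E molecule, had 220, 241, 295, 167 and 265 counts against 1065, 885, 338 and 549, and its groups did not overlap. H2-DMb1 (chr17:34153072-34160230), a chain of the H2-M molecule that helps load peptides, had 52, 44, 56, 25 and 50 counts against 120, 110, 58 and 80, again without overlap, with replicate 3 next to the highest control.

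The fitted log2 fold changes of the class II genes were close to each other, 1.21 ± 0.29 (SE) for H2-Aa, 1.23 ± 0.31 for H2-Ab1, 1.58 ± 0.31 for H2-Eb1 and 1.02 ± 0.29 for H2-DMb1 (edgeR, adjusted p = 0.013, 0.0172, 0.00314 and 0.0336). Per kilobase of exon, untreated liver held 78.7 normalized counts of H2-Aa, 118 of H2-Ab1, 122 of H2-Eb1 and 27.01 of H2-DMb1, and Setd8-LKO + TCPOBOP liver 182, 277, 365 and 54.7. The other 5 class II chains looked for, the class II partners such as Cd74 and Ciita, and all 18 classical and nonclassical class I heavy chains of the list were not among the listed genes. Without Setd8-LKO replicate 1 only H2-Eb1 of the 4 passed, and without replicate 2 H2-Aa and H2-Eb1 did. H2-Eb1 passed in each fit that leaves out a library. H2-DMb1 lost its call in 7 such fits, some of which left out an untreated library. With size factors set on the listed genes none of the 4 passed, with a median log2 fold change of 0.33. H2-DMb1 did not pass with the run as a term in the fit (edgeR, adjusted p = 0.09).

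**Figure D2:**
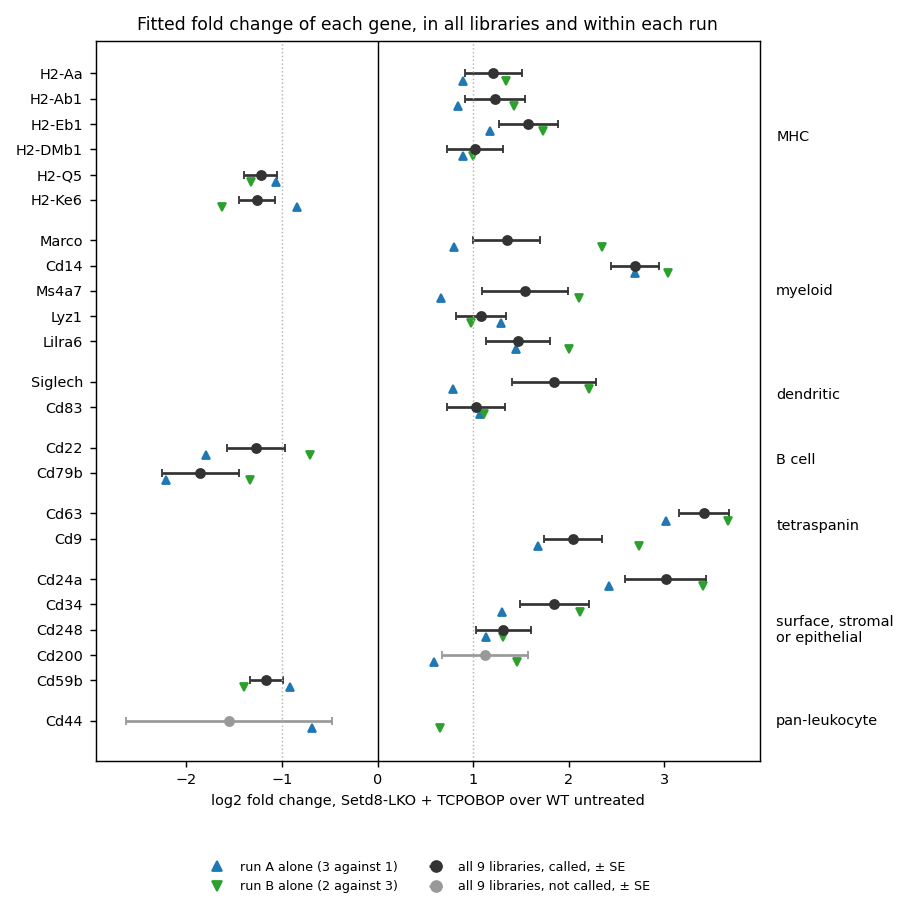
Fitted log2 fold change of each gene named in the text between Setd8-LKO + TCPOBOP and untreated wild type livers (circles, bars are ± 1 SE, grey where the test was not passed), with the fold change within run A (upward triangles) and run B (downward triangles). Both runs have the sign of the whole in every gene drawn except Cd44.

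H2-Q5 and H2-Ke6 carry H2 names and went the other way. H2-Q5, a class I-like gene of the Qa region that the tables give as a polymorphic pseudogene, had 1181, 1377, 1191, 1259 and 1129 normalized counts in untreated wild type and 453, 407, 670 and 569 in Setd8-LKO + TCPOBOP, a log2 fold change of -1.22 ± 0.17 (SE; edgeR, adjusted p = 0.000309). Class I genes are near-identical copies of each other, so its reads may belong in part to other class I genes. H2-Ke6 had 1172, 1411, 880, 830 and 928 counts against 371, 411, 469 and 492, a log2 fold change of -1.26 ± 0.19 (edgeR, adjusted p = 0.000564). This gene lies in the MHC region but encodes the hydroxysteroid dehydrogenase Hsd17b8 and no antigen-presenting molecule. Beside them B2m, the shared light chain of class I molecules, was the one class I partner listed of 15, and fell by 1.01 on the log2 scale (19264 to 23353 counts against 8244 to 12074; edgeR, adjusted p = 0.00146).

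Among the macrophage genes Cd14, the co-receptor for bacterial lipopolysaccharide, had 34, 39, 60, 68 and 43 normalized counts in untreated wild type and 374, 283, 238 and 369 in Setd8-LKO + TCPOBOP. Every Setd8-LKO library was above every control, and the log2 fold change was 2.69 ± 0.25 (SE; edgeR, adjusted p = 2.4e-05). Lyz1, one of the lysozyme genes, had 22, 38, 25, 24 and 37 counts against 66, 68, 41 and 69, a log2 fold change of 1.08 ± 0.26 (edgeR, adjusted p = 0.0124). Its near-identical neighbour Lyz2 was not among the listed genes, so reads shared by the pair are uncertain. Ms4a7, a membrane protein of macrophages, was scarce, with 8, 6, 13, 5 and 16 counts against 49, 34, 14 and 18. Its groups overlapped, and its log2 fold change was 1.54 ± 0.45 (edgeR, adjusted p = 0.0356). Ms4a7 did not pass with the run as a term in the fit (edgeR, adjusted p = 0.109). Lilra6, a paired immunoglobulin-like receptor of a family with similar members, had 13, 10, 27, 19 and 21 counts against 66, 33, 40 and 61 without overlap, a log2 fold change of 1.47 ± 0.33 (edgeR, adjusted p = 0.00821).

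Of the 35 monocyte and macrophage genes looked for, 9 were listed and all 9 rose, with a median log2 fold change of 1.89. The largest rises among those that are not CD antigens were those of Gpnmb (1 to 13 counts against 97 to 242), Spp1 (261 to 514 against 1259 to 6634, also a bile duct gene) and Trem2 (9 to 17 against 46 to 74). The common macrophage antigens Cd68, Adgre1, Csf1r, Tyrobp, Ctss and Ly86 were not among the listed genes, nor were any of the Fcgr, Fcer, Clec4 and Clec7 genes. Of 16 Kupffer cell genes only Marco and C6 were listed. C6, a complement component that hepatocytes also make, fell by 2.56 on the log2 scale (edgeR, adjusted p = 2.5e-05), the opposite direction to Marco.

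Marco, a scavenger receptor of Kupffer cells and other macrophages (chr1:120474538-120505024), was the one gene of the 24 that was listed for both treated groups. Its normalized counts were 84, 73, 272, 161 and 165 in untreated wild type, 263, 262, 458, 210 and 576 in WT + TCPOBOP, and 489, 304, 400 and 347 in Setd8-LKO + TCPOBOP. The Setd8-LKO values were all above the controls, whereas the WT + TCPOBOP values overlapped them, where 81.7% of the genes tested in that comparison did not overlap. The log2 fold change was 1.35 ± 0.35 (SE; edgeR, adjusted p = 0.0197) in Setd8-LKO + TCPOBOP. It was 1.23 ± 0.40 in WT + TCPOBOP and did not pass there (edgeR, adjusted p = 0.357, unadjusted p = 0.0107), in a table where 77.0% of 687 tested genes passed. Both folds share the untreated libraries. The 2 treated groups had means of 385 and 354 counts and did not differ beyond their spread (exact two-sided permutation test over 4 and 5 libraries, p = 0.714, where the smallest possible p is 0.00794). The test between the treated groups was added after the values had been seen. It took no account of the run, and the runs were divided unequally between the 2 treated groups.

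The untreated values of Marco also differed between the runs, whereas the values of both treated groups overlapped between them. The 2 untreated libraries of run B held 84 and 73 counts and the 3 of run A 161 to 272. The log2 fold change of Setd8-LKO + TCPOBOP was 0.80 within run A and 2.34 within run B, and that of WT + TCPOBOP 0.72 and 2.33. Without Setd8-LKO replicate 1 the adjusted p of Marco in the Setd8-LKO comparison was 0.0685 (edgeR). Adjusted p ranged from 0.00283 to 0.0685 over the fits that leave out a library.

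**Figure D3:**
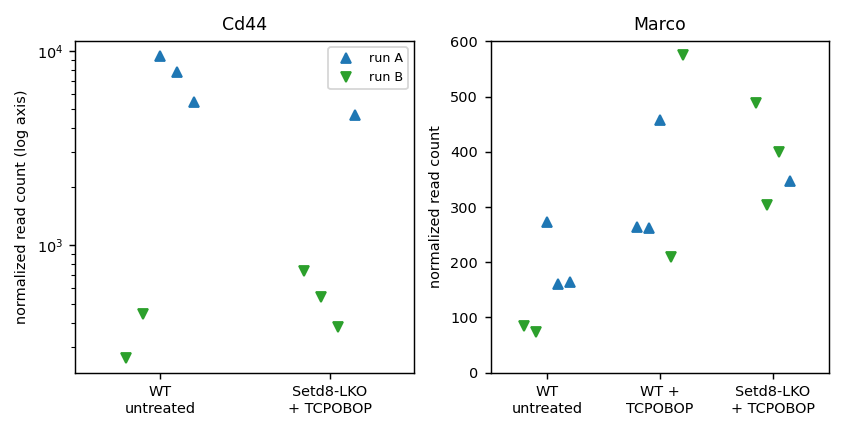
Normalized read counts per library of Cd44 (left, log axis) and Marco (right, linear axis), by group, with the run given by the direction of the triangle. All run A values of Cd44 are above all run B values whatever the group, and the untreated Marco values of run B are below those of run A.

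Siglech, a lectin of plasmacytoid dendritic cells, had 19, 10, 14, 12 and 25 normalized counts in untreated wild type and 79, 99, 29 and 30 in Setd8-LKO + TCPOBOP. The groups did not overlap, although replicates 3 and 4 lay just above the highest control, and the log2 fold change was 1.85 ± 0.44 (SE; edgeR, adjusted p = 0.0113). Cd83, a surface protein of activated dendritic cells and B cells, had 25, 19, 35, 20 and 22 counts against 68, 49, 28 and 54. Replicate 3 fell inside the untreated range, and the log2 fold change was 1.03 ± 0.30 (edgeR, adjusted p = 0.0406). Itgax was the third listed dendritic cell gene of 10 and rose as well (14 to 31 counts against 71 to 215). With the run as a term in the fit neither Cd83 nor Siglech passed (edgeR, adjusted p = 0.0569 and 0.0573).

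The B cell genes Cd79b and Cd22 fell, at low counts. Cd79b, a signalling chain of the B cell receptor, had 12, 23, 40, 14 and 30 normalized counts in untreated wild type and 6, 6, 8 and 6 in Setd8-LKO + TCPOBOP. Cd22, an inhibitory lectin of B cells, had 28, 23, 48, 29 and 49 counts against 15, 16, 15 and 12. Every Setd8-LKO library was below every control for both genes. The log2 fold changes were -1.86 ± 0.40 (SE) and -1.28 ± 0.30 (edgeR, adjusted p = 0.00568 and 0.0107).

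Of other B cell genes, Cd83 rose, as given above, and Ighd did not pass (13 to 55 counts against 10 to 17; edgeR, adjusted p = 0.11). Cd79a, Ms4a1 and Pax5 were not among the listed genes. Of 17 T cell genes only Zap70 was listed, and it fell (95 to 227 counts against 30 to 79; edgeR, adjusted p = 0.0143). Of 12 natural killer cell genes none was listed. With the run as a term Cd79b still passed and Cd22 did not, with adjusted p values of 0.0236 and 0.0539 (edgeR).

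The tetraspanins gave the largest rise of the 24 genes. Cd63, a tetraspanin of lysosomes and extracellular vesicles (chr10:128900989-128912822), had 49, 63, 62, 78 and 59 normalized counts in untreated wild type and 852, 868, 399 and 539 in Setd8-LKO + TCPOBOP. Its lowest Setd8-LKO value was far above the highest control, and the log2 fold change was 3.42 ± 0.26 (SE; edgeR, adjusted p = 7.6e-06). Cd9 (chr6:125460266-125494791), a tetraspanin of many epithelial and blood cells, had 153, 218, 421, 311 and 370 counts against 1629, 1268, 797 and 1179, a log2 fold change of 2.05 ± 0.30 (edgeR, adjusted p = 0.000467). Per kilobase of exon, Cd9 went from 144 to 596 and Cd63 from 16.9 to 180. Both passed under every scaling and in each fit that leaves out a library.

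Cd24a (chr10:43578284-43584265), a small mucin-like surface protein of progenitor and bile duct cells and of immature blood cells, had 30, 34, 57, 36 and 35 normalized counts in untreated wild type and 506, 409, 99 and 230 in Setd8-LKO + TCPOBOP. Its log2 fold change was 3.01 ± 0.43 (SE; edgeR, adjusted p = 0.000345), the second largest of the 24, and the Setd8-LKO libraries spread from 99 to 506. Cd34, a sialomucin of blood vessel endothelium and blood stem cells, had 35, 30, 38, 34 and 43 counts against 194, 182, 50 and 95, a log2 fold change of 1.85 ± 0.36 (edgeR, adjusted p = 0.00331). Cd248 (endosialin), a protein of fibroblasts and pericytes, had 13, 13, 11, 12 and 11 counts against 41, 35, 18 and 26, a log2 fold change of 1.32 ± 0.28 (edgeR, adjusted p = 0.00592). In all 3 genes replicate 3 was the lowest of the Setd8-LKO libraries and still above each control. No other endothelial gene of the 18 looked for was listed.

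Cd59b, one of the pair of mouse genes for the inhibitor of the complement membrane attack complex, fell with little spread, from 209, 259, 193, 179 and 180 normalized counts to 89, 84, 93 and 97. The groups did not overlap, and the log2 fold change was -1.16 ± 0.17 (SE; edgeR, adjusted p = 0.000525). Reads may be shared with its paralog Cd59a. Cd200, a ligand that restrains myeloid cells, had 20, 9, 17, 15 and 23 counts against 53, 56, 11 and 28. Setd8-LKO replicate 3 lay inside the untreated range and the other 3 above it, and it did not pass (log2 fold change 1.12 ± 0.45; edgeR, adjusted p = 0.183).

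Cd44, a hyaluronan receptor of leukocytes and many other cells, followed the run and not the group. Its normalized counts were 264 and 441 in the untreated libraries 1 and 2, which belong to run B, and 9430, 7802 and 5488 in the untreated libraries 3, 4 and 5 of run A. In Setd8-LKO + TCPOBOP they were 737, 544 and 378 in replicates 1, 2 and 3 of run B and 4703 in replicate 4 of run A. The log2 fold change of -1.56 ± 1.08 (SE) over all libraries had an adjusted p of 1 (edgeR, as given by the adjustment). Run A alone gave -0.69 and run B alone 0.65, and a fit with the run as a term gave 0.17. Of the 3900 listed genes, 18 had every run A library over 4 times every run B library, none the reverse, and Cd44 was the one gene of the 24 among them.

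The Setd8-LKO livers differed from each other, and most of the genes that rose ranked them alike. Replicate 3 had the lowest of the 4 values in 14 of the 16 genes that rose, and replicate 1 the highest in 13. Over all 2046 genes called higher in this table, replicate 3 was lowest in 53.3% and replicate 1 highest in 40.2%. Replicate 3 was the lowest in 8 of 8 listed bile duct or progenitor genes, in 7 of 7 listed stellate cell or fibroblast genes and in 8 of 9 listed monocyte or macrophage genes. These counts are not separate from those above, since the lists hold Cd24a, Cd248, Cd14, Lyz1 and Ms4a7. Spp1 is counted in both the bile duct and the macrophage list. The 4 class II chains summed to 595 to 1113 normalized counts in the untreated libraries and to 3247, 2723, 1090 and 1764 in Setd8-LKO replicates 1 to 4, so replicate 3 stayed within the untreated range.

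Markers of other cells moved in the same livers. Of 13 stellate cell or fibroblast genes, 7 were listed and all 7 rose, with sums of 2385 to 3577 counts in untreated wild type and 6391 to 15348 in Setd8-LKO + TCPOBOP. Of 10 bile duct or progenitor genes, 8 were listed and 6 of the 7 tested rose. Without Spp1 their sums were 228 to 268 counts against 854 to 2847. Of 14 hepatocyte genes, 9 were listed, of which 8 fell and Cyp3a11, a target of CAR, rose. Their sums were 1288704 to 2097293 counts against 682086 to 936634. The monocyte and macrophage genes without Spp1 summed to 177 to 256 counts against 682 to 1269. In WT + TCPOBOP 3 of the hepatocyte genes were listed. There Ass1 fell (log2 fold change -1.68, against -1.54 in Setd8-LKO + TCPOBOP) and Cyp3a11 rose (2.08, against 1.35). G6pc did not pass there (-1.06, against -2.23). The part of these cell types in the values of the 24 genes was not tested.

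**Figure D4:**
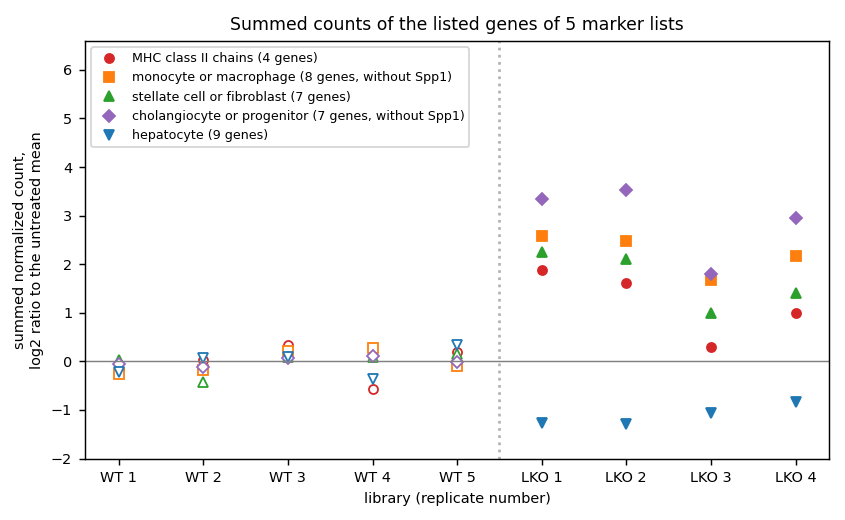
Summed normalized counts of the listed genes of 5 marker lists in each library, as the log2 ratio to the mean of the 5 untreated libraries; open symbols are untreated wild type (WT) and filled symbols Setd8-LKO + TCPOBOP (LKO). The 4 rising lists are all at their lowest Setd8-LKO value in replicate 3, where the class II sum of 1090 counts is within the untreated range.

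Chromatin was compared through one peak list per group, so these values have no replicate error and no test. The wild type lists are of untreated mice, and WT + TCPOBOP had no chromatin samples, so genotype and treatment changed together here as well. Untreated wild type had 3 H3K27ac, 3 ATAC-seq, 4 CTCF and 3 Smc3 samples. Setd8-LKO + TCPOBOP had 3, 5, 2 and 2. The 5′ end of a gene was counted as marked when a peak lay within 1000 bp of it. The H3K27ac list, a mark of active promoters and enhancers, held a peak at 6 of the 24 genes in wild type (25.0%, against 54.8% of all listed genes) and at 7 in Setd8-LKO + TCPOBOP (29.2%, against 58.4%). The genes with a peak in both lists were Cd83, Cd9, Cd24a, Cd248, Cd59b and H2-Ke6, and Cd14 had one in the Setd8-LKO list only, with a fold enrichment of 7.38. The fold enrichment over background went from 8.33 to 25.0 at Cd24a, from 23 to 37.2 at Cd9, from 11.4 to 21.9 at Cd248 and from 19.3 to 28.2 at Cd83, which are genes that rose. It went from 19.6 to 11.4 at Cd59b, which fell, and from 33.2 to 37.8 at H2-Ke6, which fell as well. How the enrichment changed between the lists over all listed genes was not computed, so these values have no background beside them.

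The 5′ end that the tables give is not the only start of a gene. At Cd63 the H3K27ac peak lay near other annotated transcript starts, 7831 to 9633 bp into the gene, with a fold enrichment of 13.0 in wild type (chr10:128909670-128910565) and 43.3 in Setd8-LKO + TCPOBOP (chr10:128909481-128910668). At H2-Eb1 a peak near a start 3708 bp into the gene went from 11.1 to 19.9. Counting any transcript start, 8 of the 24 genes had an H3K27ac peak in wild type (33.3%, against 60.1% of all listed genes). In Setd8-LKO + TCPOBOP 9 of the 24 had one (37.5%, against 63.7%). No class II chain had a peak of any of the 4 assays at its own 5′ end, nor did Marco, Siglech, Lilra6, Cd79b or Cd44.

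Smc3, a cohesin subunit, had no peak at the 5′ end of any of the 24 genes in wild type (14.4% of all listed genes) and peaks at 8 in Setd8-LKO + TCPOBOP (33.3%, against 52.6%). The fold enrichment was 108 at Cd9 (chr6:125493959-125494933), 82.7 at Cd24a (chr10:43578294-43579963), 64.0 at H2-Ke6 and 48.0 at Cd83, and between 7.83 and 21.1 at Cd248, Cd59b, Cd34 and Cd14. CTCF, the insulator protein that works with cohesin, had none of the 24 in wild type (4.64% of all listed genes) and 5 in Setd8-LKO + TCPOBOP (20.8%, against 35.2%), at Cd83, Cd9, Cd24a, Cd248 and H2-Ke6. Peaks at the 5′ ends thus stood both at genes that rose and at Cd59b and H2-Ke6, which fell. Open chromatin measured by ATAC-seq marked Cd59b and H2-Ke6 in both lists and Cd9 in the Setd8-LKO list (8.33% and 12.5% of the 24, against 37.3% and 31.8% of all listed genes). None of the 24 5′ ends lay in a Lamin A/C or H4K20Me3 island of either group, where 3.72% to 6.36% of all listed genes did.

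**Figure D5:**
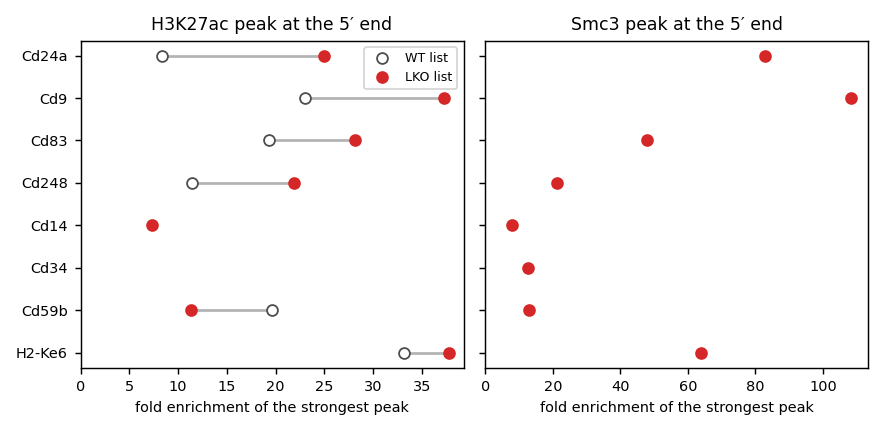
Fold enrichment over background of the strongest H3K27ac (left) and Smc3 (right) peak within 1000 bp of the 5′ end, for the 8 genes with such a peak; open circles are the wild type list, red circles the Setd8-LKO + TCPOBOP list, and a line joins a gene that has both. Smc3 peaks appear in the Setd8-LKO list alone, up to a fold enrichment of 108 at Cd9.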

How the data were processed

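RNA-seq reads were filtered by the authors with PRINSEQ, aligned to mm10 with HISAT2 and counted, normalized and tested with metaseqR. The deposited tables hold raw counts and normalized counts per library for selected genes only, so a column's sum is not its depth. Over the 3900 listed genes raw counts summed to 11270521 to 12780869 in untreated and 5734065 to 8231255 in Setd8-LKO libraries. The number of counts sets the precision of the scarce genes, of which 6 had an untreated mean under 20. Columns of fold changes and p-values by the authors were not used, nor were 114 columns of transformed values per library. Normalized counts are raw counts times a single factor per library, which is the same for the untreated libraries in both tables. MACS2 2.2.7.1 and SICER were named in the submitters' processing notes. The fold enrichment (a ratio) and −log10 p of each peak and the score of each island were deposited by the authors as one list per group.

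Raw counts with the authors' factors were tested in edgeR 4.0.16 (R 4.3.3; glmQLFit, glmQLFTest) on every listed gene with at least 10 scaled counts in as many libraries as the smaller group. The Benjamini-Hochberg adjustment used n = 22028, the protein-coding genes of GENCODE M21, because the tables omit unselected genes. The test was also run on simulated counts in which a minority of genes changed. Most genes of these tables passed, so that run does not show how the test behaves on them. DESeq2 1.42.0 served as an alternative. Both tables were assumed to be normalized separately, and as their factors proved equal, a permutation test of Marco between the treated groups was added. All 24 genes and their lists were chosen with earlier results of these data known. Named were the 3 largest non-overlapping changes per list, a fixed set of lineage genes, genes in both tables and those not passing; as only 24 genes fitted, nearly all are given, and some results are not reported here. Replicates are libraries of separately numbered mice in the labels. Promoter sequences are from RefSeq, GRCm38.p6. Python 3.11.15, numpy 2.4.6, pandas 2.3.3 and matplotlib 3.10.9 were used.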

Additional observations from a re-analysis of the deposited data

Results flagged for a closer look

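In each group of 4 or 5 libraries the gap between the highest or lowest value and its neighbour was compared with the group's range by Dixon's test at the 95% level. Of 49 groups of values, 4 were past it, and chance alone gives about 1 in 20. Cd44 was high in Setd8-LKO replicate 4, with 4703 normalized counts against 378 to 737 in the other 3. That library is the one Setd8-LKO library of run A. Lyz1 was low in Setd8-LKO replicate 3, with 41 counts against 66 to 69. Cd24a was high in untreated replicate 3, with 57 counts against 30 to 36. Cd79b had 8 counts in Setd8-LKO replicate 3 and 6 in each of the others, a difference of few reads.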

How the results depend on the processing

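Of the 24 genes, 22 passed in Setd8-LKO + TCPOBOP, and 22 or 23 passed with TMM scaling, no filter on low counts, the DESeq2 test or an adjustment over the listed genes alone. DESeq2 size factors set on the listed genes gave 10, run A alone 4 and run B alone 9, the single runs with fewer libraries. Of the 4 class II chains 0 passed with those size factors, 0 in run A alone and 0 in run B alone. Of the 4 B cell genes, Cd83 included, 1 passed with the run as a term, 0 in run A alone and 0 in run B alone. Of the 3 monocyte or macrophage genes among the 24, 1 passed with those size factors, 1 in run A alone and 1 in run B alone. Size factors over listed genes centre genes that were selected for a change, and moved the median log2 fold change of all tested genes from 1.17 to 0.35. The share of all tested genes that passed was computed only for the main fit (91.7%) and with the run as a term (85.8%). Under the other settings of this section the counts therefore have no background. Whether a lower count belongs to these genes or to the whole table was not tested. The log2 fold change of Cd44 turned from -1.56 to 0.17 with the run as a term and to 0.65 in run B alone. With a library left out, 15 to 22 of the 24 passed, 1 to 4 class II chains, 2 to 3 B cell genes and 2 to 3 monocyte or macrophage genes, with 15 genes and 1 class II chain without Setd8-LKO replicate 1. Cd83 and H2-DMb1 each lost their call in 7 of these 9 fits and Ms4a7 in 5. Same-numbered libraries did not deviate together (correlations of -0.152 to 0.0664 in this comparison), so the replicate numbers do not pair them, and with a replicate block 14 of the 24 genes, 1 class II chain and 1 B cell gene passed. In WT + TCPOBOP 0 of 1 gene passed, and 1 (Marco) did when adjusted over the listed genes. TMM and DESeq2 scaling lowered its log2 fold change from 1.23 to 0.23 and 0.04. Counting any transcript start was chosen after seeing the data. It gave 8 of the 24 genes a CTCF peak in the Setd8-LKO list in place of 5 (33.3%, against 41.7% of all listed genes). In the wild type list it gave 1 gene a Smc3 peak in place of 0 (4.17%, against 19.3%). A window of 2000 bp gave 1 there as well (against 17.6% of all listed genes). Other windows and a stricter −log10 p moved no peak count by over 1.5 times. Counts under about 20 in many libraries of a group limit what can be read from Cd79b, Cd22, Ms4a7, Cd248, Siglech, Lilra6 and Cd200.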

Other observations

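Some marker lists without CD antigens among their listed genes also had values in these livers. The neutrophil calprotectin genes S100a8 (2 to 44 normalized counts in untreated wild type, 29 to 40 in Setd8-LKO + TCPOBOP) and S100a9 (3 to 56 against 42 to 81) did not pass (edgeR, adjusted p = 0.395 and 0.289), and the highest untreated values, 44 and 56 counts, were both those of replicate 4. Blnk, an adaptor of the B cell receptor that macrophages also use, rose (29 to 55 counts against 136 to 322; edgeR, adjusted p = 5.8e-05) where Cd22 and Cd79b fell. Among transcription factors of blood cell lineages, Runx1 rose (9 to 33 counts against 33 to 55; edgeR, adjusted p = 0.0478). In WT + TCPOBOP some genes of the marker lists were listed beside Marco. They were Lrat, a stellate cell gene (268 to 389 counts against 113 to 166), Prom1 (9 to 57 against 37 to 216) and the hepatocyte genes Cyp3a11, Ass1 and G6pc. Cyp3a11 rose (49706 to 120069 against 322753 to 401487) and Ass1 fell (39082 to 96180 against 15376 to 23450). G6pc did not pass (3705 to 8670 against 2020 to 4755, edgeR, adjusted p = 0.109).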
